A study of Mus musculus with 12 samples.

Results

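Glutathione S-transferases are enzymes that join glutathione, a tripeptide of glutamate, cysteine and glycine, to reactive electrophiles such as drug metabolites and products of lipid peroxidation. The genes fall into classes: alpha (Gsta), mu (Gstm), pi (Gstp) and theta (Gstt) enzymes are soluble, and Mgst1 belongs to a separate family of membrane enzymes. The alpha genes are best known from liver, and several family members are targets of 2 sensors of chemical stress: NRF2 (gene Nfe2l2), which is held back by KEAP1, and the aryl hydrocarbon receptor (gene Ahr). The 10 genes described here, with the NCBI Gene numbers that the files give, are Gsta1 (14857), Gsta2 (14858), Gm3776 (100042295), Gsta3 (14859), Gsta4 (14860), Gstm1 (14862), Gstm2 (14863), Gstp1 (14870), Gstt1 (14871) and Mgst1 (56615). They were taken by symbol from the 16288 genes listed in at least 1 of 12 RNA-sequencing libraries, and all 10 were found. The family was selected on the measured difference between PFI-3 and DMSO in proliferating cells, where alpha-class copies had the largest rises. The values of that comparison describe the choice and carry no test.

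The cells were C2C12, an immortalized mouse myoblast line that fuses into myotubes when serum is withdrawn. They received DMSO, the vehicle, or 50 uM PFI-3, a ligand of the bromodomains in BRM (Smarca2) and BRG1 (Smarca4), the ATPases of the SWI/SNF chromatin remodellers, and in PB1 (Pbrm1), a subunit of one of them. RNA came from 3 stages with 2 libraries (A and B) for each stage and treatment: proliferating cells in growth medium with 10% fetal bovine serum (GM), and cells 24 h or 48 h after a change, at 90% confluence, to medium with 2% horse serum and insulin (DM 24h, DM 48h). All cells had 12 h of DMSO or PFI-3 before harvest or before the change of medium, and both were renewed every 24 h. Stage thus goes with medium, confluence and total time under the compound, and these cannot be told apart. The series text calls the A and B libraries biological duplicates. No source used here says whether the cultures were grown on separate days, so the p-values measure the spread between these libraries.

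The total expected count of a library lay between 12576374 and 13658352. All 5 myoblast markers (Myod1, Myf5, Des, Cdh15 and Pax7) were above 1 FPKM in every library. Of 5 hepatocyte markers, the summed level was at most 0.24 FPKM in any library, and the summed level of 5 endothelial and of 5 adipocyte markers was at most 0.84 and 0.36 FPKM. Macrophage and leukocyte markers summed to between 1.19 and 8.21 FPKM, most of it from Cd68, while Ptprc was at most 0.03 FPKM. The A and B libraries of a group differed more in GM than in DM: over genes, log2(B/A) had an SD of 0.346 and 0.38 in the GM groups and of 0.145 to 0.173 in the DM groups.

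Gsta1, Gsta2 and Gm3776 are near-identical copies on chromosome 9, in 1 cluster with Gsta4 that spans 155.2 kb (GRCm38, gene bounds from RefSeq). Gsta4 lies at chr9:78191966-78209349, Gsta1 at chr9:78230669-78242683, Gm3776 at chr9:78257129-78269166 and Gsta2 at chr9:78331018-78347192. The longest protein-coding transcripts of Gsta1 and Gm3776 in GENCODE differ at 4 aligned bases (99.5% identity), and those of Gsta1 and Gsta2 are 97.2% identical. Gsta1 and Gsta4 share only 74% of aligned bases. Reads can therefore be split between the copies: 9 of 11 listed counts of Gsta1, 9 of 10 of Gsta2 and 7 of 9 of Gm3776 were fractions, against 0 of 12 for Gsta4. The 3 copies were summed and are called the Gsta copies below. The other members lie elsewhere: Gsta3 at chr1:21240565-21265575, Gstm2 at chr3:107981702-107986420 and Gstm1 at chr3:108012250-108017973, Mgst1 at chr6:138140527-138156755, Gstt1 at chr10:75783813-75798584 and Gstp1 at chr19:4035411-4037912.

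The start regions of the 3 copies are printed because the copies have the largest ratios of PFI-3 to DMSO; the pi-class gene Gstp1 is set beside them because its ratio in GM was the smallest of the members. All are RefSeq sequence of GRCm38.p6, 5′ to 3′ on the strand of the gene. Capitals mark GCGTG, the core of the xenobiotic response element that the aryl hydrocarbon receptor binds, in the copies, and TGAGTCA, an AP-1 site that some antioxidant response elements contain, in Gstp1. The stretches are Gsta1 chr9:78230558-78230674 (plus strand), Gm3776 chr9:78257031-78257147 (plus strand), Gsta2 chr9:78347145-78347259 (minus strand) and Gstp1 chr19:4037957-4038026 (minus strand).
Gsta1: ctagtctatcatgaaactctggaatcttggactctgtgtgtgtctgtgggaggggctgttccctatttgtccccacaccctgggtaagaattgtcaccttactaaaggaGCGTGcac
Gm3776: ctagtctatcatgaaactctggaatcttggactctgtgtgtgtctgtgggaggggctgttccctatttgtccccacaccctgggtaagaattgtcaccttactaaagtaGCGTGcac
Gsta2: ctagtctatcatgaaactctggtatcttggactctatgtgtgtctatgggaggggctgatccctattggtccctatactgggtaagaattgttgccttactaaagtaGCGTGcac
Gstp1: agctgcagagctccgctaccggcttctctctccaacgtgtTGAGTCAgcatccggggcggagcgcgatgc
The Gsta1 stretch is 99.1% identical to that of Gm3776 and 91.3% identical to that of Gsta2. Each window held 250 bases before and 50 bases after the annotated start, and 9 of the 10 members had one. GCGTG, searched on both strands, was found in 5 of those 9 genes (Gsta1, Gm3776, Gsta2, Gstm1 and Gstp1) and in 32.4% of all 32851 windows. The 3 copies share this site in closely similar sequence, so they are not separate finds. Members are counted here by gene and the background by window, so no excess is read from these shares. TGACNNNGC, the core of the antioxidant response element, was found in 2 of the 9 (Gsta3 and Mgst1) and in 12.4% of all windows. TGAGTCA was found in 1 of the 9 (Gstp1) and in 5.2% of all windows. Read on the other strand TGAGTCA is TGACTCA, so a site followed there by GC also matches TGACNNNGC; in Gstp1 it does not. A match describes the letters only and does not show binding.

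In DMSO cells the pi-class enzyme dominated at every stage, and the alpha copies were minor. Levels between genes are compared here in FPKM, which is scaled by transcript length and library size. In GM with DMSO the order of mean levels was Gstp1 at 516 ± 71.8 FPKM (SD, n = 2), Gsta4 at 102 ± 44.8, Gstm1 at 60.4 ± 21.2 and the Gsta copies at 20.1 ± 1.79. Gstm2 (6.91), Mgst1 (1.18) and Gstt1 (0.425) followed, and Gsta3 was at 0 in both libraries. Only the neighbours Gsta4 and Gstm1 overlapped in that order, since Gsta4 was at 70.2 and 133 FPKM and Gstm1 at 45.4 and 75.4 FPKM. In DM 24h with DMSO, Gstm1 (82.3 ± 2.40) stood above Gsta4 (41.2 ± 0.467), and the Gsta copies (0.445 ± 0.488) were below Gstt1 and Mgst1, which overlapped each other. At DM 48h with DMSO the order was Gstp1, Gstm1, Gsta4, Gstm2, Mgst1, Gstt1 and the Gsta copies, with no overlap between neighbours.

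With PFI-3 the make-up of the family in GM was different. Gsta4, which conjugates hydroxynonenal and related products of lipid peroxidation, was at 579 and 641 FPKM and overlapped Gstp1 at 585 and 622 FPKM. The Gsta copies were at 160 and 268 FPKM, above Gstm1 at 79.4 and 123 FPKM. Gsta4 made up 36.7% and 42.4% of the summed FPKM of all members in those libraries, against 11.6% and 16.5% with DMSO, while the share of Gstp1 was 37% and 41.1% against 70.2% and 76.7%. In DM the order with PFI-3 was Gstp1, Gstm1, Gsta4 and Gstm2 at both times, and the copies reached only 15.0 and 17.7 FPKM at 24 h and 1.94 and 2.53 FPKM at 48 h.

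**Figure D1:**
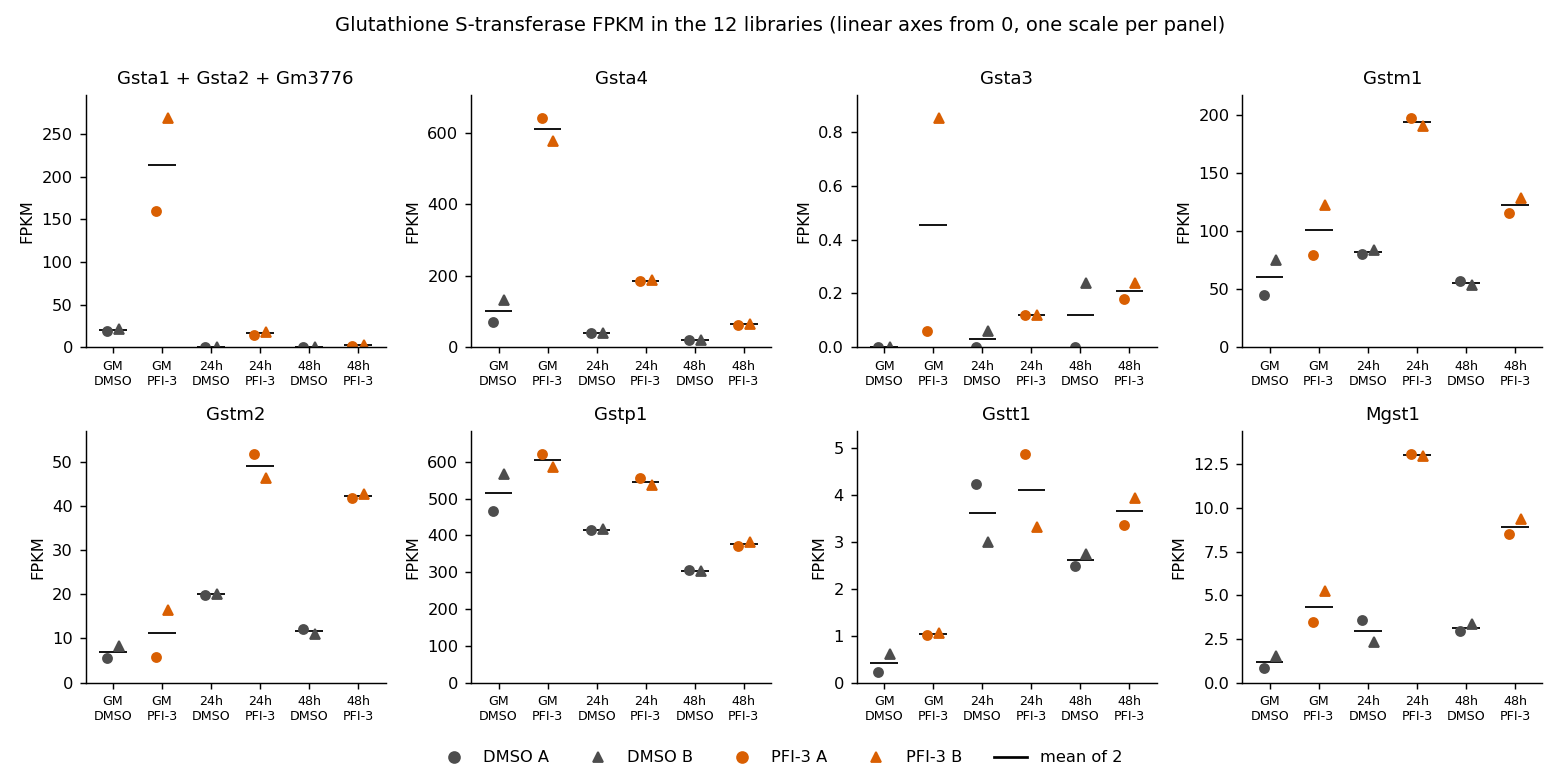
Level of each member in FPKM (vertical axis, linear, its own scale in each panel) in the 12 libraries, by stage and treatment; circles are A libraries, triangles B libraries, and lines the means of 2. The Gsta copies and Gsta4 stand highest in GM with PFI-3, Gstm1, Gstm2 and Mgst1 in DM 24h with PFI-3.

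The summed FPKM of the members was higher with PFI-3 at each stage, and lower at each later stage in both treatments. It was 606 and 807 with DMSO and 1512 and 1578 with PFI-3 in GM. At DM 24h it was 564 and 569 against 994 and 1023, and at DM 48h 396 and 402 against 606 and 634. The groups did not overlap at any stage. FPKM were used as given, without the TMM scaling of the CPM, and this matters for the largest part. Gstp1 in GM was at 465 and 567 FPKM with DMSO and 622 and 585 FPKM with PFI-3, without overlap. In CPM it overlapped (330 and 382 against 400 and 379). The part of the unit in the gap between the sums was not tested. These sums are descriptions with no test, since the GM values chose the members. In bulk RNA, fewer cells that hold a transcript and less of it per cell cannot be told apart.

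**Figure D2:**
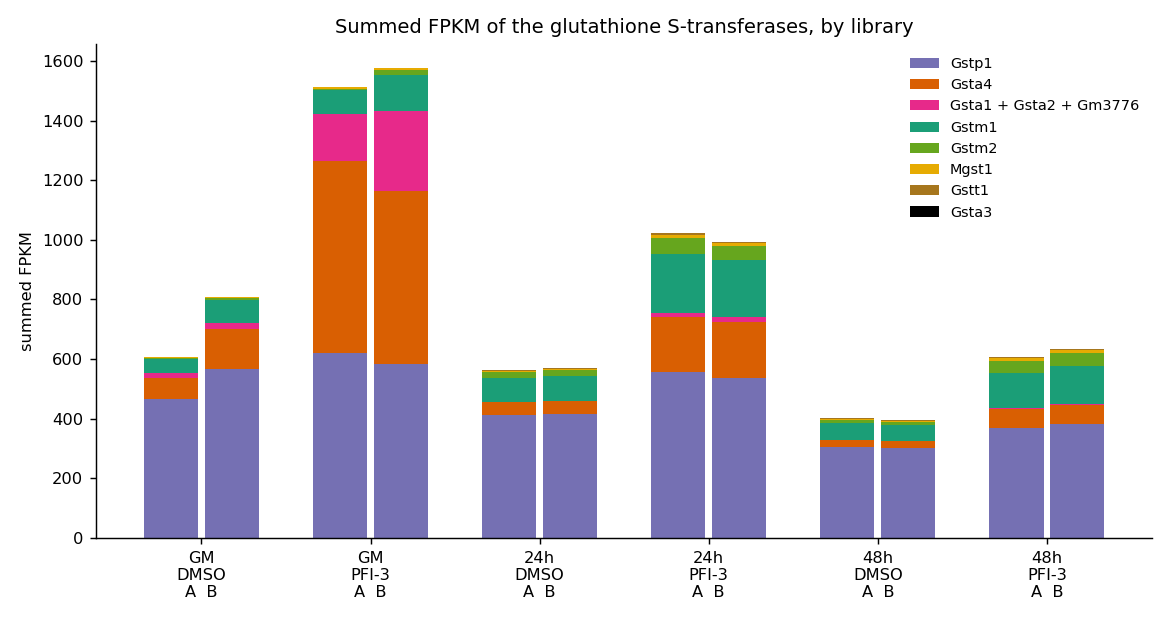
Summed FPKM of the 10 genes (vertical axis, from 0) in each library, stacked by gene, with the A bar left of the B bar in each group. Gstp1 is the largest part of each bar except the A bar of GM with PFI-3. In that group Gsta4 makes up 42.4% (A) and 36.7% (B) of the bars of 1512 and 1578, and Gstp1 41.1% and 37%.

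The alpha class held the largest ratios of PFI-3 to DMSO in GM, as the choice of members requires. The Gsta copies had 201 and 230 expected counts with DMSO and 1666 and 2884 with PFI-3. Scaled to the library total (CPM), that is 15.8 and 17.0 against 121 and 205 CPM, a 9.96-fold higher mean. Both PFI-3 libraries stood far above both DMSO libraries, but they also differed from each other. Gsta4 was at 66.8 and 120 CPM with DMSO and 553 and 502 CPM with PFI-3, 5.64-fold higher. Mgst1, a membrane-bound enzyme that also reduces lipid hydroperoxides, was at 0.784 and 1.33 against 2.91 and 4.42 CPM, 3.47-fold higher. Gstm1 was at 59.7 and 93.9 against 94.6 and 147 CPM, and the lower PFI-3 library was level with the higher DMSO library to within 1 CPM. Gstm2 (6.11 and 8.79 against 5.89 and 16.7 CPM) and Gstp1 (330 and 382 against 400 and 379 CPM) overlapped between the treatments. Gstt1 had only 3 and 8 counts with DMSO and 12 and 14 with PFI-3.

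In these GM groups, 5 of the 7 members that passed the low-count filter had both PFI-3 libraries above both DMSO libraries; 21.4% of all 12543 rows tested did so, and edgeR called 5.43% higher and 6.12% lower at an adjusted p under 0.05. Nothing is read from the members' share, because this comparison chose them. Gsta3, an alpha enzyme known for handling aflatoxin epoxide in mouse liver, did not pass the filter. It had 0 and 0 counts with DMSO in GM, 1 and 15 with PFI-3, and at most 4 in any DM library. Within the Gsta copies, the counts assigned to Gsta2 were 3.69% and 5.4% of the sum with DMSO and 9.29% and 12.6% with PFI-3 in GM, and those of Gm3776 29.5% and 35.7% against 27.9% and 29.5%. These shares depend on how shared reads were split. Gm10639, a further copy in the same cluster (96.7% identical to Gsta1), added between 0.981% and 3.84% to the sum in GM.

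At DM 24h, PFI-3 was compared with DMSO in libraries that had no part in the choice of members, though the earlier results were known. There 6 of the 7 members tested were higher with PFI-3 and none lower, while 12.2% of the 12543 rows tested were called higher and 23.6% called in either direction (edgeR's quasi-likelihood test, Benjamini-Hochberg adjusted p under 0.05 over all rows). The median log2 fold change of the 7 was 1.25, and that of all rows was -0.00107. In 6 of the 7 both PFI-3 libraries lay above both DMSO libraries, as in 35.3% of all rows. The member outside both counts was Gstt1.

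The Gsta copies had 1 and 8 counts with DMSO at DM 24h and 150 and 176 with PFI-3, or 0.0793 and 0.619 against 11.4 and 13.4 CPM. The copies were thus nearly silent in vehicle cells and clearly detected with PFI-3, at a level below that of vehicle-treated GM cells (15.8 and 17.0 CPM). The log2 fold change was 5.10 (SE 0.53, edgeR adjusted p = 3.89e-05). Its size rests on very few DMSO counts: it was 4.30 without the DMSO A library and 7.13 without the DMSO B library, and remained called in both cases; the second value rests on 1 DMSO count and gives no usable size. Gsta4 was at 36.9 and 36.6 CPM with DMSO and 159 and 162 CPM with PFI-3. It rose by 2.13 on the log2 scale (SE 0.20, edgeR adjusted p = 1.58e-05), with replicates that differed by less than 3 CPM.

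Gstm1 and Gstm2, mu-class enzymes that conjugate a wide range of aromatic and epoxide substrates, rose at DM 24h as well. Gstm1 was at 99.2 and 104 CPM with DMSO against 235 and 227 CPM (log2 fold change 1.19, SE 0.20, edgeR adjusted p = 0.00123). Gstm2 was at 20.6 and 21.1 CPM against 52.2 and 46.8 CPM (log2 fold change 1.24, SE 0.27, edgeR adjusted p = 0.00673). The treatments did not overlap for either gene. The call of Gstm2 was lost when any of 3 of the 4 DM 24h libraries was left out (DMSO A, DMSO B or PFI-3 A), with adjusted p between 0.0568 and 0.0626. Transcripts of Gstm1 and Gstm2 are 85.9% identical, and none of their counts was a fraction.

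Mgst1, one of the weakly expressed members, rose as well at that time, from 3.09 and 2.01 CPM with DMSO to 11.0 and 10.9 CPM with PFI-3 (log2 fold change 2.10, SE 0.25, edgeR adjusted p = 0.00011). Gstp1, the abundant pi-class enzyme, was at 275 and 280 CPM with DMSO and 357 and 345 CPM with PFI-3. That is a small change without overlap (log2 fold change 0.34, SE 0.07, edgeR adjusted p = 0.00547), which missed the threshold without DMSO A or PFI-3 A (adjusted p = 0.0539 and 0.0572). All 12 counts of Gstp1 and all 12 of its near-copy Gstp2 (95.9% identical transcripts) were fractions, so part of its value depends on how shared reads were split. Gstt1, a theta-class enzyme that acts on small halogenated compounds, was at 3.73 and 2.94 CPM with DMSO and 4.49 and 3.13 CPM with PFI-3. Its groups overlapped, and it was not called (log2 fold change 0.19, SE 0.27, edgeR adjusted p = 0.654).

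At DM 48h, 5 of the 7 members were higher with PFI-3 and none lower, against 13.4% of all rows called higher and 27.4% called in either direction. The median log2 fold change was 1.41, and that of all rows 0.00136. In all 7 both PFI-3 libraries lay above both DMSO libraries, as in 35.4% of all rows. Gsta4 was at 20.2 and 20.4 CPM with DMSO and 55.8 and 56.9 CPM with PFI-3 (log2 fold change 1.47, SE 0.21, edgeR adjusted p = 0.000307). Gstm1 was at 73.1 and 69.0 against 140 and 156 CPM (log2 fold change 1.06, SE 0.20, edgeR adjusted p = 0.00204). Gstm2 was at 13.3 and 12.1 against 42.9 and 43.8 CPM, the largest log2 fold change among the called members at this time (1.77, SE 0.29, edgeR adjusted p = 0.000822). For both mu-class genes the gap between the treatments was far beyond the difference between A and B. Mgst1 was at 2.68 and 3.03 against 7.21 and 7.96 CPM (log2 fold change 1.41, SE 0.26, edgeR adjusted p = 0.00153).

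The other 3 members were close to or short of the threshold at DM 48h. The Gsta copies had 6 and 5 counts with DMSO and 19 and 25 with PFI-3, or 0.488 and 0.409 against 1.49 and 1.95 CPM. The groups did not overlap, but the copies were not called (log2 fold change 1.92, SE 0.77, edgeR adjusted p = 0.087). Over the 23 alternatives tried, the adjusted p ran from 0.000382 to 0.265 and was under 0.05 in 9, among them the DESeq2 test and the fits of only the DM libraries. Gstp1 was at 211.9 and 211.5 against 241 and 250.1 CPM, and was called by a small margin (log2 fold change 0.21, SE 0.07, edgeR adjusted p = 0.0455). That call was lost in 11 of the 23 alternatives, with adjusted p up to 0.203. Gstt1 was at 2.52 and 2.54 against 3.21 and 3.51 CPM, and was not called (log2 fold change 0.41, SE 0.29, edgeR adjusted p = 0.327).

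**Figure D3:**
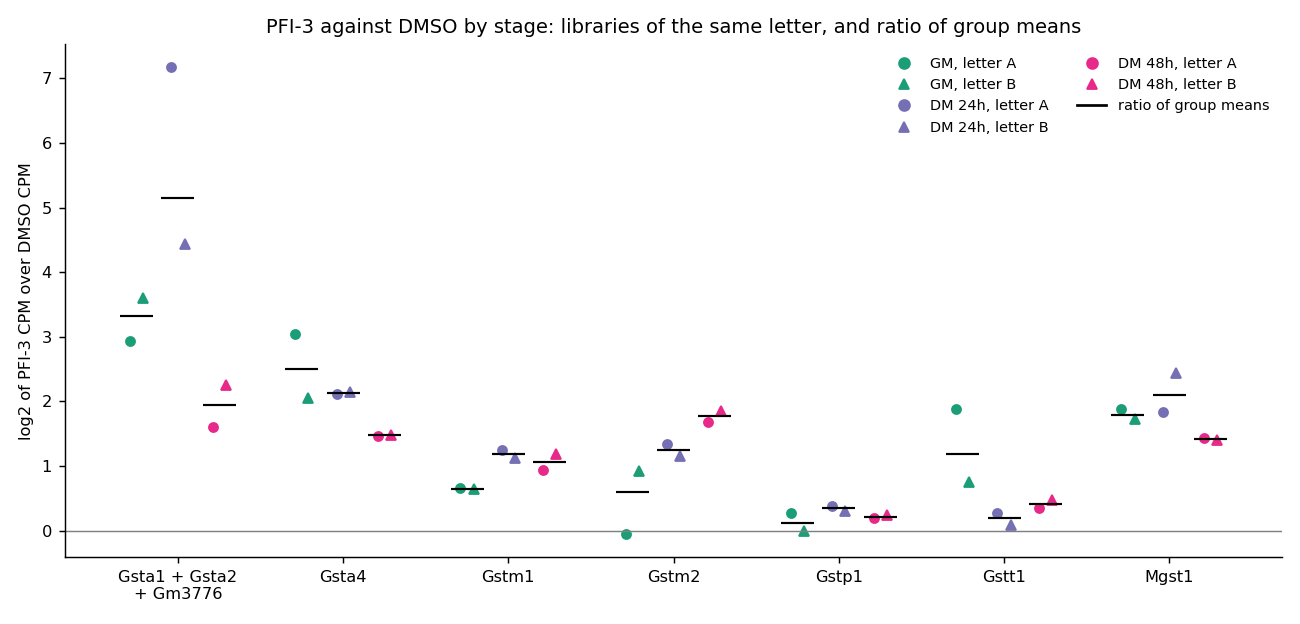
Log2 of the PFI-3 to DMSO ratio in CPM (vertical axis) for each member and stage, for libraries of the same letter (circles A, triangles B) and for the group means (lines); the letters are not treated as pairs in the tests. The copies at DM 24h spread widely because the DMSO A library holds 1 count, and Gsta4 lies lower at DM 48h (ratio 2.78) than at DM 24h (4.36) while Gstm2 lies higher (3.41 against 2.37).

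Whether the PFI-3 effect differed between the 2 differentiation times was tested as an interaction. None of the 7 members was called (background: 12.1% of all rows, 7.12% with a larger and 4.97% with a smaller value at DM 48h), and 2 of the 7 reached an unadjusted p under 0.05 in edgeR, against 26.2% of all rows. The effect was smaller at DM 48h for the Gsta copies by 3.19 on the log2 scale (SE 1.26, edgeR adjusted p = 0.127), and for Gsta4 by 0.65 (SE 0.29, edgeR adjusted p = 0.175). It was larger for Gstm2 by 0.52 (SE 0.40, edgeR adjusted p = 0.448). These 3 genes passed the threshold, in those directions, when the GM libraries were left out of the fit. The share of all rows called in such fits was not counted, so nothing is read from these calls. DESeq2 and limma each called 1 member, the Gsta copies. The 4 GM libraries take no part in this contrast except through the shared estimate of the spread, and their A and B libraries differed most.

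Changes over time in DM were tested in each treatment. With DMSO, 2 of the 7 were lower at DM 48h than at DM 24h and none higher (background: 23.9% of all rows lower, 48.1% called), so the share is near the background. The members lower with DMSO were Gsta4 (log2 fold change -0.86, SE 0.22, edgeR adjusted p = 0.00634) and Gstp1 (-0.39, SE 0.07, edgeR adjusted p = 0.00083). The changes of Gstm1 (-0.52, edgeR adjusted p = 0.0523) and Gstm2 (-0.71, edgeR adjusted p = 0.075) missed the threshold and passed it when the GM libraries were left out of the fit. With PFI-3, 4 of the 7 were lower at DM 48h and none higher (background: 14.2% lower and 13.1% higher, 27.3% called). These were the Gsta copies (-2.85, SE 0.38, edgeR adjusted p = 0.00018), Gsta4 (-1.51, SE 0.19, edgeR adjusted p = 9.86e-05), Gstm1 (-0.64, SE 0.19, edgeR adjusted p = 0.0269) and Gstp1 (-0.51, SE 0.07, edgeR adjusted p = 0.000242). In PFI-3 cells Gstm2 changed by -0.19 (SE 0.26, edgeR adjusted p = 0.631) and Mgst1 by -0.53 (SE 0.22, edgeR adjusted p = 0.0912). Both passed the threshold in the fit of only the 8 DM libraries (edgeR adjusted p = 0.0264 for Gstm2 and 0.00428 for Mgst1). For changes over time, the share of all rows called without the GM libraries was not counted. The call of Gstm1 was lost when any 1 of the 4 PFI-3 DM libraries was left out, with DESeq2, and with limma on log2(FPKM + 0.1).

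The members did not share 1 direction on entry into differentiation in vehicle cells. From GM to DM 24h with DMSO, 3 of the 6 members tested rose and 2 fell (background: 60.6% of all rows called, 30.6% higher and 30% lower). Gstt1 went from 0.235 and 0.591 to 3.73 and 2.94 CPM (log2 fold change 2.97, SE 0.39, edgeR adjusted p = 4.04e-05). Gstm2 went from 6.11 and 8.79 to 20.6 and 21.1 CPM (log2 fold change 1.48, SE 0.33, edgeR adjusted p = 0.00197), and Mgst1 rose by 1.25 (SE 0.35, edgeR adjusted p = 0.0081). The theta, mu and membrane-bound genes that rose are all among the lower in GM. Gsta4 fell by 1.35 (SE 0.20, edgeR adjusted p = 8.56e-05) and Gstp1 by 0.36 (SE 0.07, edgeR adjusted p = 0.000934), while Gstm1 changed by 0.40 (SE 0.20, edgeR adjusted p = 0.102). Gstm1 passed the threshold with the letter as a block (0.42, edgeR adjusted p = 0.0476), and its change ran from 0.112 to 0.766 over the alternatives. The Mgst1 call was lost without DMSO A of DM 24h (edgeR adjusted p = 0.0873) and without DMSO A of GM (edgeR adjusted p = 0.065). The Gsta copies, whose GM values helped to choose them, went from 15.8 and 17.0 to 0.0793 and 0.619 CPM and are given with no test.

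Markers of muscle differentiation moved with both stage and treatment. The summed level of Myog, Myh3, Ckm, Acta1 and Tnnt3 was 3.68 to 7.03 FPKM in the 4 GM libraries. At DM 24h it was 1200 FPKM in both DMSO libraries and 535 and 539 FPKM with PFI-3, and at DM 48h 7840 and 7860 against 5460 and 5520 FPKM. All 5 of these markers were above 1 FPKM in every DM library. The part of this difference in the members' DM values was not tested. In GM these sums overlapped between the treatments (3.68 and 7.03 with DMSO, 5.81 and 6.31 with PFI-3). The 5 myoblast markers summed to less with PFI-3, without overlap, at each stage: 213 and 271 against 300 and 333 FPKM in GM, 532 and 544 against 708 and 713 at DM 24h, and 1030 and 1070 against 1160 and 1200 at DM 48h. Single markers did not all follow the sum. In GM, Myod1, Myf5 and Pax7 each overlapped between the treatments, and only Des and Cdh15 were lower without overlap. Myf5 alone was higher with PFI-3 at DM 24h (23.99 and 26.39 against 21.37 and 19.36 FPKM). The leukocyte markers summed to more with PFI-3: 4.49 and 8.21 against 2.33 and 4.40 FPKM in GM, 2.81 in both libraries against 1.19 and 2.09 at DM 24h, and 1.86 and 1.89 against 1.40 and 1.54 at DM 48h. Cd68, the largest part of these sums, overlapped between the treatments in GM (4.26 and 7.85 FPKM with PFI-3, 4.28 and 2.1 with DMSO). It overlapped also at DM 48h (1.41 and 1.47 against 1.45 and 0.86 FPKM), but not at DM 24h. The part of these markers in the members' values was not tested.

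The other genes of the family and of glutathione use were taken from lists and counted as wholes. Of 21 other glutathione S-transferase genes, 11 passed the filter, and only Gstt3, a second theta-class gene, was higher with PFI-3 at DM 24h and at DM 48h. It was at 1.19 and 1.78 against 4.72 and 5.26 CPM at 24 h (log2 fold change 1.74, SE 0.48, edgeR adjusted p = 0.0205). At 48 h it was at 0.895 and 0.736 against 3.53 and 3.12 CPM (2.01, SE 0.56, edgeR adjusted p = 0.0189). None of the 11 was lower at either time, and their medians were 0.09 and 0.09, close to those of all rows. In GM only Gsto1, an omega-class enzyme, was called, and it was lower (-0.35, edgeR adjusted p = 0.0239). In the fit of only the 8 DM libraries, 3 of the 11 were higher and 2 lower at DM 24h, where 44.3% of all rows were called. At DM 48h that fit gave 2 higher and 1 lower, where 46.6% were called.

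Of 24 genes that make, recycle or break down glutathione, 21 passed the filter. At DM 24h 7 were higher with PFI-3 and 3 lower (median log2 fold change 0.11), and at DM 48h 6 were higher and 2 lower (median -0.13). Of all rows, 12.2% were higher and 11.4% lower at the first time and 13.4% and 14% at the second. With only the 8 DM libraries in the fit the balance at DM 48h was 7 higher and 7 lower, where 46.6% of all rows were called. At DM 24h that fit gave 9 higher and 3 lower, where 44.3% were called. Pgd, an enzyme of the pentose phosphate pathway that supplies NADPH, was at 192 and 186 CPM with DMSO and 306 and 311 CPM with PFI-3 in the DM 24h libraries (log2 fold change 0.71, SE 0.08, edgeR adjusted p = 5.34e-05). Oplah, which recovers glutamate from oxoproline, rose by 0.77 (SE 0.16, edgeR adjusted p = 0.00426) at DM 24h. At DM 48h the larger rises were G6pdx, the first enzyme of the pentose phosphate pathway (0.74, SE 0.08, edgeR adjusted p = 4.49e-05), and Gclc, the catalytic subunit of the rate-limiting enzyme of glutathione synthesis (0.61, SE 0.08, edgeR adjusted p = 0.000208). Chac1, which degrades glutathione, was at 14.4 and 15.2 CPM with DMSO at DM 24h and 3.27 and 3.20 CPM with PFI-3 (-2.19, SE 0.57, edgeR adjusted p = 0.0163). Slc7a11, the cystine transporter, fell by 0.48 (SE 0.07, edgeR adjusted p = 0.000505) at DM 24h.

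The glutathione peroxidases, which use glutathione to reduce peroxides, did not move as 1 group. Of 8, 5 passed the filter, and at DM 24h only Gpx7 was called (23.6% of all rows were). In the fit of only the 8 DM libraries 2 were higher and 2 lower at that time, where 44.3% of all rows were called. Gpx7 had 7 and 4 counts with DMSO and 0 in both PFI-3 libraries (edgeR adjusted p = 0.0193), too few for a fold. At DM 48h all 5 were called, in both directions (27.4% of all rows), as with only the 8 DM libraries in the fit (46.6%). Gpx1 (0.42) and Gpx8 (0.41) rose, and Gpx3 (-0.58), Gpx4 (-0.30) and Gpx7 fell (-3.04, from 23 and 26 counts with DMSO and only 2 and 4 with PFI-3), with edgeR adjusted p between 0.000787 and 0.0247. Gpx7 had at most 7 counts in any library outside DM 48h with DMSO. It passed the filter only through that group, where it is high, so its call is no support.

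Of 14 genes for the export and trimming of glutathione conjugates, 9 passed the filter. At DM 24h 4 were higher with PFI-3 and none lower (median log2 fold change 0.36), and at DM 48h 4 were higher and 1 lower (median 0.18), beside 12.2% and 13.4% of all rows higher. The fit of only the 8 DM libraries gave 7 higher and none lower at DM 24h. Of its 12542 rows, 44.3% were called and 2780 were called higher. At DM 48h it gave 4 higher and 2 lower, where 46.6% of all rows were called. Abcc4, an ATP-driven efflux pump, was at 19.9 and 18.9 CPM with DMSO and 61.9 and 53.5 CPM with PFI-3 at 24 h in DM (log2 fold change 1.57, SE 0.13, edgeR adjusted p = 6.28e-06). Anpep, a surface aminopeptidase, was at 48.8 and 49.2 against 162 and 153 CPM (1.68, SE 0.18, edgeR adjusted p = 6.17e-05). At DM 48h Abcc4 rose by 1.36 and Anpep by 1.13 (edgeR adjusted p = 4.19e-05 and 0.000749). Dpep1, a membrane dipeptidase, was the gene that fell at that time (25.4 and 26.2 against 10.4 and 8.74 CPM, -1.43, edgeR adjusted p = 0.000497).

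The list of regulators and partner enzymes held the sensors and their other known targets, and 18 of its 20 genes passed the filter. At DM 24h 10 were higher with PFI-3 and 1 lower (median log2 fold change 0.52), and at DM 48h 9 were higher and 2 lower (median 0.50), beside 12.2% and 13.4% of all rows higher. Nqo1, a quinone reductase under NRF2 and the aryl hydrocarbon receptor, was at 26.6 and 26.2 against 144 and 144 CPM at DM 24h (2.45, SE 0.16, edgeR adjusted p = 1.11e-06). By DM 48h Nqo1 stood at 5.53 and 6.95 against 46.5 and 45.3 CPM (2.88, SE 0.20, edgeR adjusted p = 1.44e-06). Aldh3a1, an aldehyde dehydrogenase under the aryl hydrocarbon receptor, was at 16.7 and 18.4 against 176 and 171 CPM at DM 24h (3.31, SE 0.37, edgeR adjusted p = 6.92e-05). Cyp1a1, the classic target of that receptor, had 2 and 1 counts with DMSO and 33 and 37 with PFI-3 at DM 24h (edgeR adjusted p = 0.0315). Nfe2l2, the gene of NRF2, went from 154 and 156 to 216 and 217 CPM at DM 24h (0.48, SE 0.13, edgeR adjusted p = 0.0207). It was not called at DM 48h (0.18, edgeR adjusted p = 0.344) or in GM (0.17, edgeR adjusted p = 0.425). Nfe2l2 is named outside the rule, after its values were seen. The receptor gene Ahr itself fell, from 26.6 and 25.4 to 14.6 and 15.4 CPM at DM 24h (-0.79, SE 0.13, edgeR adjusted p = 0.00116) and by 1.01 at DM 48h (SE 0.13, edgeR adjusted p = 0.000106). Mafk, a small partner protein of NRF2, fell by 0.61 at DM 48h (edgeR adjusted p = 0.00249).

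In GM the same lists gave 9 higher and none lower of the 18 regulators and partners, 6 higher and 2 lower of the 21 genes of glutathione turnover, and 3 higher and 1 lower of the 9 export genes. Of the 5 peroxidases none was higher and Gpx3 was lower (-0.63, edgeR adjusted p = 0.00482). In this comparison 11.6% of all rows were called. These counts come from the fit of all 12 libraries. With only the 4 GM libraries in the fit, 33 of 12434 rows (0.265%) were called, and of the lists only 2 regulators and partners were among them. With the letter as a block in that fit, 7.41% of rows were called, among them 9 regulators and partners, 6 genes of turnover and 3 export genes that were higher. The lists were chosen with earlier results of these data known, so their counts are no independent support for a theme.

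**Figure D4:**
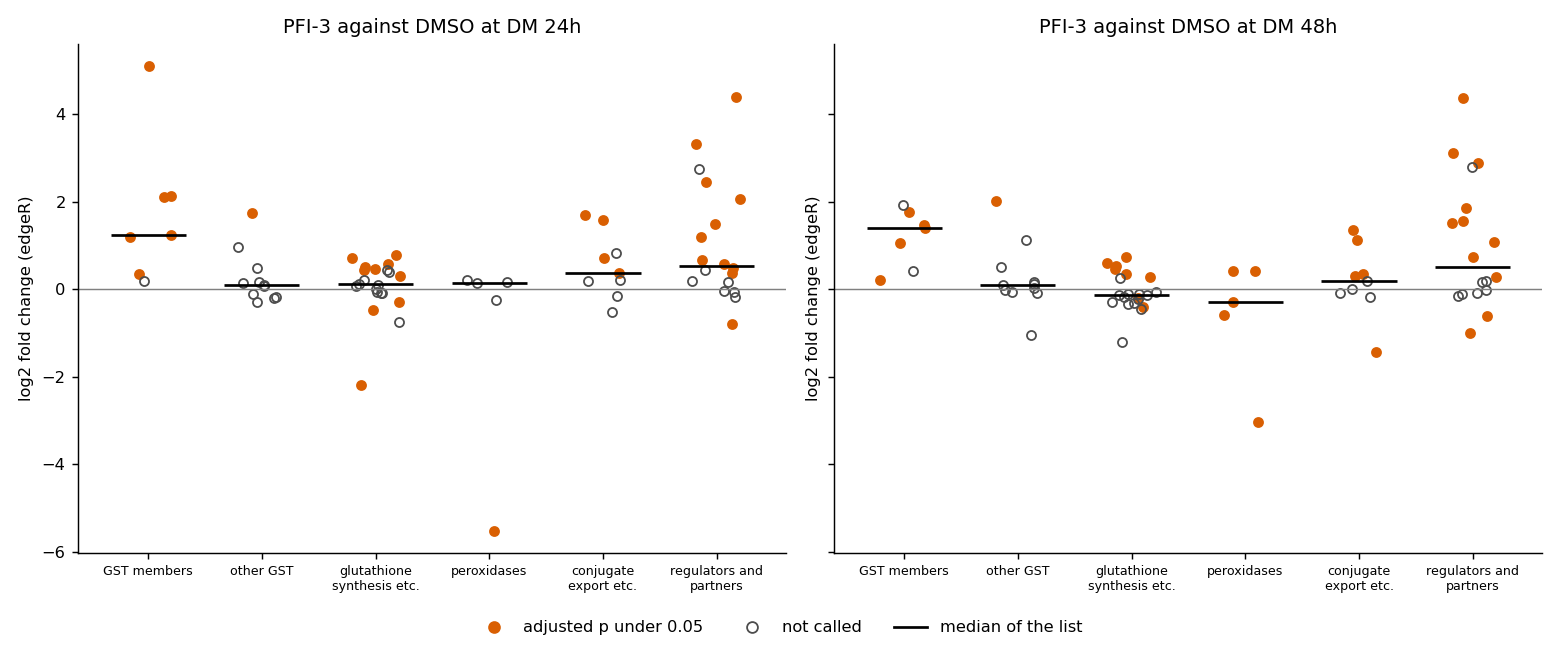
Log2 fold change of PFI-3 against DMSO (vertical axis, edgeR) for the 7 members and for each gene of the 5 lists that passed the filter, at DM 24h (left) and DM 48h (right); filled points have an adjusted p under 0.05, and lines are medians. The members' medians of 1.25 and 1.41 lie above those of the lists, where the regulators and partners have medians of 0.52 and 0.50; the lowest point at DM 24h is Gpx7, which has no count with PFI-3.

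The neighbours of the alpha cluster were counted because 4 of the members sit in it; this window was chosen after values had been seen. RefSeq places 33 other genes within 500 kb of the cluster, of which 10 passed the filter. At DM 24h, 4 of the 10 were higher with PFI-3 (12.2% of all rows were) and none lower: Gclc (0.47), Slc17a5 (0.59), Fbxo9 (0.32) and Eef1a1 (0.23). At DM 48h, 3 were higher (13.4% of all rows) and none lower: Gclc (0.61), Cgas (1.02) and Cd109 (0.27). Elovl5 and Mto1, which lie on either side of the members, were not called at either time. The log2 fold changes of the called neighbours were at most 1.02. Gm10639, the further copy, is among the 10 and was not called at either time; it had at most 2.27 expected counts in a DM library, too few for a fold.

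The genes whose levels ran most like those of the Gsta copies over the 12 libraries were ranked by Pearson's r of log2 CPM, among 10364 genes whose mean level reached 5 CPM. The 5 highest were Gramd4 (r = 0.971), Irf2bp2 (0.970), Tulp3 (0.967), BC022687 (0.967) and Syn1 (0.965). All points share the 6 groups and the libraries, and the steps between stages weigh most, so this is a description. Their ratios of PFI-3 to DMSO in GM were only 1.12 to 1.77. Of the other members, Gsta4 had r = 0.937 and Gstp1 r = 0.855, while Gstm1 (0.259), Mgst1 (0.0169), Gstm2 (-0.268) and Gstt1 (-0.598) ran differently from the copies.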

How the data were processed

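RNA from 12 C2C12 libraries (6 groups of 2) was measured by RNA sequencing. The authors deposited 1 table per library with an expected count and an FPKM value per gene, per the file headers. The submitters' processing notes name HISAT, StringTie, Cufflinks, Bowtie, RSEM and DESeq2 and the build mm10, with no role or version. Whole numbers made up 93.3% to 93.7% of a library's expected counts, with a tolerance of 0.005 here and in the counts of fractions. A gene missing from a library's table was taken as 0 there, which no header states.

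Expected counts were rounded and tested with edgeR 4.0.16 (R 4.3.3): quasi-likelihood test, TMM scaling, filterByExpr, and 1 model of 6 groups over all 12 libraries. Gsta1, Gsta2 and Gm3776 were replaced by their sum, which left 12543 rows tested of 16288 genes listed. Benjamini-Hochberg adjustment ran over these rows, and a row was called at an adjusted p under 0.05. The SE given with an edgeR fold change is not a fitted standard error. It is the absolute log2 fold change divided by the square root of the test's F statistic. CPM are counts scaled by the TMM-adjusted total. The script was tested on simulated data. A total of 3 or fewer counts over the libraries of a group was taken as a floor below which no fold is given; such floors cover counting error only, since reads without molecular identifiers are not independent molecules.

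The members and lists were chosen with earlier results of these data known. Named genes are all members and, of each list, up to 3 called genes a direction and comparison (all genes of a list with under 8 measured), plus neighbours of the cluster. Alternatives were size factors, DESeq2 1.42.0, no filter or a mean of at least 10 counts, limma 3.58.1 on log2(FPKM + 1) and log2(FPKM + 0.1), only the libraries compared, the replicate letter as a block, the copies as separate rows, a 2-fold minimum and leaving out each library. A fit of only the 8 DM libraries and the addition of Gm10639 to the sum were chosen after seeing the data. Sequences and positions are from RefSeq (GRCm38.p6), transcripts from GENCODE. Figures were drawn with Python 3.11.15 and matplotlib 3.10.9.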

Additional observations from a re-analysis of the deposited data

Results flagged for a closer look

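For 6 of the 64 list genes tested (9.38%, below the 12.1% of all rows), and for none of the members, the effect of PFI-3 differed between DM 24h and DM 48h by the interaction test (edgeR, adjusted p under 0.05 over all rows). The log2 effect on Oplah went from 0.77 to -0.32, a difference of -1.09 (SE 0.22, edgeR adjusted p = 0.00612). Mafk went from 0.16 to -0.61 (difference -0.77, edgeR adjusted p = 0.0115) and Gpx4 from 0.17 to -0.30 (difference -0.47, edgeR adjusted p = 0.0158). Glo1, which detoxifies methylglyoxal with glutathione, went from 0.09 to -0.21 (difference -0.29, edgeR adjusted p = 0.0452). For Slc7a11 the effects at the earlier and later time were -0.48 and -0.14 (difference 0.34, edgeR adjusted p = 0.0432), and for Txnrd1, a thioredoxin reductase, 0.36 and 0.74 (difference 0.37, edgeR adjusted p = 0.0489).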

How the results depend on the processing

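With PFI-3, 6 members were higher at DM 24h and 5 at DM 48h. Both counts ran from 4 to 6 when single libraries were left out. The interaction between the DM times called 0 members; DESeq2, limma with either pseudocount and the replicate block called 1 each, the fits of only the libraries compared, with or without the replicate block, and of only the 8 DM libraries called 3, and leaving out single libraries gave 0 to 1. The count of 2 for DMSO at DM 48h against DM 24h became 4 in the same 3 fits of fewer libraries, 0 with a 2-fold minimum, and 2 to 4 with single libraries left out. The count of 4 with PFI-3 became 2 with a 2-fold minimum and ran from 3 to 5; that of DMSO at DM 24h against GM ran from 4 to 6. The cause of these changes was not tested. Signs reversed, in no called gene, when 1 DM 24h library was left out. Without PFI-3 A or PFI-3 B of DM 24h, the log2 effect on Gstt1 at that time ran from -0.091 to 0.429, its interaction from -0.0196 to 0.501, and its change over time with PFI-3 from -0.416 to 0.104. Without DMSO A or DMSO B of DM 24h, the DMSO change over time ran from -0.457 to 2.37 for the Gsta copies and from -0.11 to 0.503 for Mgst1. For the copies the value of 2.37 rests on 1 DMSO count at DM 24h and gives no usable size. The log2 ratio of the Gsta copies in GM was 3.32, 3.31 with size factors, 3.41 in FPKM and 2.89 to 3.65 with single libraries left out. The replicate letters were not treated as pairs: the correlation between deviations of libraries with 1 letter was 0.39 in GM, 0.013 in DM 24h and 0.029 in DM 48h. With the letter as a block 6 and 5 members were higher at DM 24h and DM 48h, the Gsta copies in place of Gstp1 at the later time. With 2 libraries a group and 1 to 8 counts in the DMSO libraries in DM, the values of the copies there rest on few reads.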
